A study of Mus musculus with 16 samples.

Results

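The matrix metalloproteinase (Mmp), Adamts and Timp genes were described across 16 bulk RNA sequencing libraries of mouse gonadal white fat. Members were the protein-coding genes named Mmp, Adamts or Timp followed directly by a number and at most 1 letter, and 1 further gene of that naming pattern was left out by the rule. There were 44 such genes among 54532 gene rows: 21 Mmp, 19 Adamts and 4 Timp genes. The rule reads only the gene name and the biotype.

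All libraries came from female C57BL/6 mice, an inbred laboratory strain, and the age at harvest is not given in the sources used here. Control mice (C) stayed undisturbed with the dam until weaning on postnatal day 21. Mice of the early life stress model (MS) were taken from the dam daily from postnatal day 2 to 16 and weaned on day 17. The diet was high-fat (HF) or low-fat (LF). Gonadal fat was digested with collagenase and split by centrifugation and filtration into the mature adipocyte fraction (A) and the stromal vascular fraction. Magnetic cell sorting then served to separate adipocytes from other cells and gave preadipocytes (P), by antibodies not given in the sources used here. On the high-fat diet, preadipocytes gave 4 libraries per early life treatment and mature adipocytes 3 per treatment. The low-fat groups were preadipocytes only, with 1 library per treatment. No label ties libraries of 1 group to different animals. The p-values therefore cover only the spread between these libraries, and that spread may be technical.

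Matrix metalloproteinases are zinc-dependent enzymes that cut collagens, laminins and other matrix proteins, most of them made as inactive precursors. ADAMTS proteases are secreted relatives with thrombospondin repeats that cleave proteoglycans, trim procollagens or act on microfibrils. TIMPs are small secreted proteins that bind the active site of these enzymes, and in growing fat this system remodels the matrix around adipocytes, vessels and progenitor cells.

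Library totals ran from 14182130 to 23368821 counts. The fractions matched their labels at the level of markers: in mature adipocytes 14 of 14 adipocyte markers were higher (median log2 fold change 6.26), such as Cfd, which encodes adipsin, and 12 of 12 progenitor markers were lower (median -3.05), such as Dpp4. Both fractions also held RNA of other cell types. The summed level of 16 macrophage markers ran from 884 to 5471 FPKM, fragments scaled to gene length and library depth, in preadipocyte libraries and from 1826 to 4967 in mature adipocyte libraries. In mature adipocytes 12 of 14 endothelial markers were higher, such as Sox18 (3.16 on the log2 scale), and 1 was lower. Of the mesothelial markers 10 of 10 were lower, such as Wt1 (-4.80). Over all genes tested 26.9% were higher and 34.6% lower. Control high-fat preadipocyte libraries 1 and 3 were near-identical, differing at 6.93% of genes, whereas the other 17 pairs of same-group libraries differed at 43.9% to 78.6%. They were summed into 1 library in the tests and averaged into 1 sample in each mean, so n = 3 there. Medians and ranges over libraries took them as separate libraries. Both also held the highest sums of urothelial and reproductive tract markers, 358 and 349 FPKM, against 1.51 to 81.6 in the other preadipocyte libraries. Control mature adipocyte libraries 1 and 3 were of low complexity: their ratio of genes with 1 to 5 counts to genes with 6 to 15 was 1.147 and 0.637, against 1.55 to 2.21 in the other mature adipocyte libraries. Among preadipocyte libraries, stress high-fat libraries 3 and 4 held the highest macrophage sums, 4697 and 5471 FPKM.

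Of the members, 11 lie on chromosome 9, and 8 of them form 1 run of Mmp genes within 427 kb, from base 7272514 to 7699585 (GRCm38). The stretch just before the transcription start is shown for these 8 because neighbouring genes of this run differed widely in level. RefSeq promoter windows on GRCm38.p6 (250 bases before to 50 after a start) matched 30 of the 44 members. Capitals mark 2 motifs searched in the printed stretch: TGANTCA, the binding word of AP-1, which reads the same on both strands, and TATAAA, the TATA box. Each line gives the 110 bases before the RefSeq start, 5′ to 3′ on the gene's strand. For Mmp7, which has 2 RefSeq windows, the first is shown.

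Mmp13, chr9:7272404-7272513, plus strand: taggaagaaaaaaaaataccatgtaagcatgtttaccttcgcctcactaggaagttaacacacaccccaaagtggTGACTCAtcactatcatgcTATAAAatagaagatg
Mmp1b, chr9:7388027-7388136, minus strand: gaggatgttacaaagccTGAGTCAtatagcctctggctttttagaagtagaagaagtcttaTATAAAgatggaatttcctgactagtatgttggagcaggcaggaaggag
Mmp3, chr9:7445712-7445821, plus strand: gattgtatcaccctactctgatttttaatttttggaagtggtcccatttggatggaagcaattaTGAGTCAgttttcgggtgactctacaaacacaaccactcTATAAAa
Mmp10, chr9:7502232-7502341, plus strand: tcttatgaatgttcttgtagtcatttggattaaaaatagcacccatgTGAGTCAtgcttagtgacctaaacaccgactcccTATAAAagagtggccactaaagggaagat
Mmp8, chr9:7558319-7558428, plus strand: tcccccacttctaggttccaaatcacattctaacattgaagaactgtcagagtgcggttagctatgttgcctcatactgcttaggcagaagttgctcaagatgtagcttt
Mmp27, chr9:7571286-7571395, plus strand: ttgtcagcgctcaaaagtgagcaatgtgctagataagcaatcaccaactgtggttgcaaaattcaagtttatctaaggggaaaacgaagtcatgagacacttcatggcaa
Mmp20, chr9:7628121-7628230, plus strand: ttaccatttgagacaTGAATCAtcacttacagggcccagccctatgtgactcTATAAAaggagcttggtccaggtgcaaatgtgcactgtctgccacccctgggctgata
Mmp7, chr9:7691980-7692089, plus strand: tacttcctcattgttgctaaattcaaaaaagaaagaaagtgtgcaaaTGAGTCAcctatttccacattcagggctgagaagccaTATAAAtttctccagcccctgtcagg

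In the full windows TGANTCA occurred in 6 of the 8 genes of the run, namely Mmp13, Mmp1b, Mmp3, Mmp10, Mmp20 and Mmp7, and in 0 of the other 22 members with a window. Among all 32851 RefSeq windows of this length 7.81% held it on either strand. In Mmp3, Mmp10 and Mmp7 the first base of the word lay 46, 63 and 63 bases before the start. TATAAA on either strand was found in 7 of the 8 genes and in 2 of the other 22, Adamts1 and Mmp21, against 13.6% of all windows. The Mmp8 match is the reverse complement and runs into the start, so it carries no capitals. Both words stood together in 6 of the 8 and in 1.54% of all windows.

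The other members looked different at this scale. The word GGGCGG, the GC box, was found on either strand in 18 of the 22 other members and in 0 of the 8 genes of the run, against 35.7% of all windows. It is shown in capitals, on both strands, for Mmp14 and Timp2, which were abundant in preadipocytes, and for Mmp28, which was higher in mature adipocytes.

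Mmp14, chr14:54431488-54431597, plus strand: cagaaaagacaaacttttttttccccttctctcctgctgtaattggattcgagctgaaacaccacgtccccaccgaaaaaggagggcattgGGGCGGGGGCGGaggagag
Timp2, chr11:118355412-118355521, minus strand: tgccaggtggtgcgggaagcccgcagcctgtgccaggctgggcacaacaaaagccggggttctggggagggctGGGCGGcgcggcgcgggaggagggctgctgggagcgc
Mmp28, chr11:83463041-83463150, minus strand: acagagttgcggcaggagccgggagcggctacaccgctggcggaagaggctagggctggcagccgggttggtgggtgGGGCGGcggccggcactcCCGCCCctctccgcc

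These matches are descriptions of letters in a window, and binding was not measured. Levels in the run varied among genes with both words: Mmp3 reached 230 FPKM, whereas Mmp20 had 1 count in all 16 libraries. Mmp1b had 3 counts, all in stress high-fat preadipocyte library 3, and Mmp7 had 15 counts in 6 libraries. Of the Mmp1b exon bases 10.8% overlap a gene with far more counts on the opposite strand. The strand setting of the counting is not given, so the 3 counts need not be from Mmp1b. Mmp27, with neither word, lay at 1.59 to 3.39 FPKM in high-fat preadipocytes, above Mmp10 at 0.0256 to 0.616 in the same libraries.

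**Figure D1:**
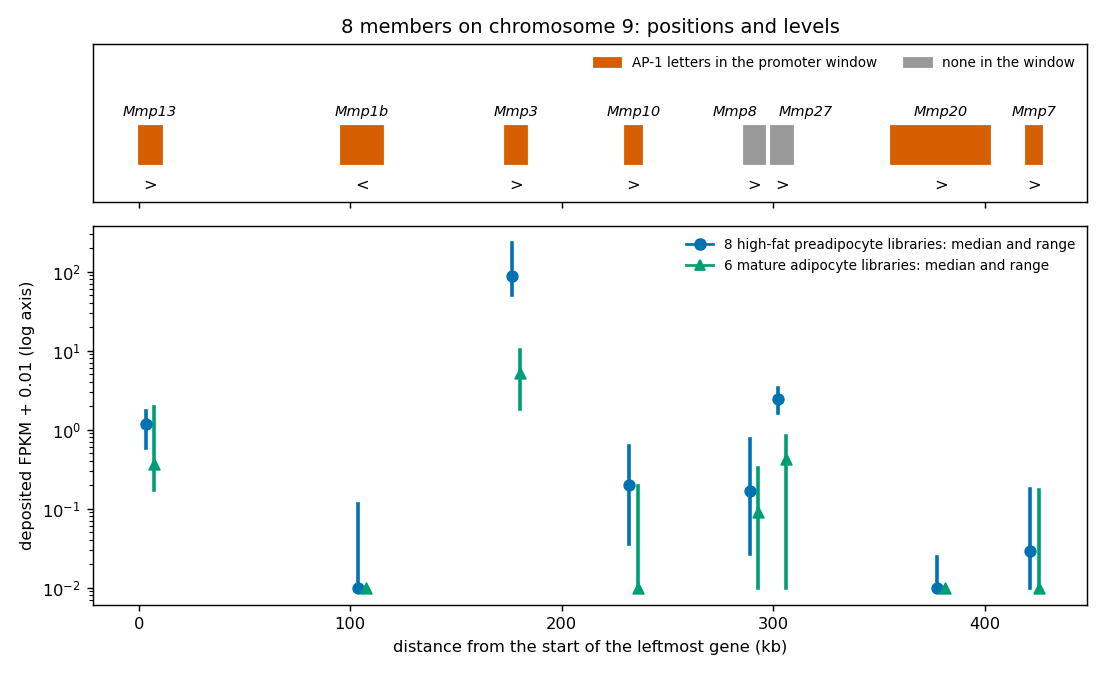
Position (upper panel, kilobases from the start of the leftmost gene, arrows for strand, orange where the AP-1 word is in the promoter window) and level (lower panel, deposited FPKM plus 0.01 on a log axis) of the 8 Mmp genes in 1 run on chromosome 9. Points are medians and bars the whole range over 8 high-fat preadipocyte and 6 mature adipocyte libraries; Mmp3 stands above its 7 neighbours in both fractions.

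Counting fragments per gene length allows levels of different genes to be set side by side. In high-fat preadipocytes a few members carried most of the signal. The 5 most abundant members of each library made up 69.8% to 79.2% of the summed FPKM of all 44. By mean over the high-fat preadipocyte libraries, 7 members reached 100 FPKM, 15 reached 10 FPKM and 31 reached 1 FPKM. In mature adipocytes 0 members averaged 100 FPKM, 11 averaged at least 10 and 20 at least 1.

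Timp2, which inhibits MMPs and also helps Mmp14 to activate the Mmp2 precursor, had the highest level of all members in each of the 10 preadipocyte libraries. It ran from 447 to 1164 FPKM with a median of 718 in high-fat preadipocytes, and stood at 1046 and 998 in the control and stress low-fat libraries. Mmp2, the gelatinase that Mmp14 activates, followed at 208 to 487 FPKM (median 322), and its range overlapped that of Adamts1, a protease that cleaves versican and aggrecan, at 175 to 411 (median 257). Adamts4, an aggrecanase, at 52.8 to 241 FPKM (median 127), Mmp14, the membrane-bound collagenase, at 93.8 to 215 (median 115), and Mmp3, stromelysin 1, at 50.2 to 230 (median 89.2) came next. Their ranges overlapped so far that their order was not fixed across libraries.

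The order differed in mature adipocytes. Timp2 led with 42.5 to 135 FPKM (median 78.1), and Adamts1 followed at 27.1 to 77.0 (median 57.2). Mmp19, a secreted metalloproteinase, came next by mean at 27.3 to 62.2 (median 35.7). Of its exon bases 22.3% overlap Tmem198b on the opposite strand, and the strand setting of the counting is not given in the sources used here. Timp4, the inhibitor known for its expression in fat and heart, and Mmp28, or epilysin, had ranks 4 and 5 by mean there, although their ranks in high-fat preadipocytes were 27 and 31. The rank of Timp4 rests on the low-complexity control libraries 1 and 3 (60.1 and 59.2 FPKM): its median of 12.6 lay below those of Timp3 (17.6), Mmp28 (17.5), Adamts5 (16.9) and Timp1 (12.8). Timp4 topped the list in control mature adipocyte library 1 and Adamts1 in stress mature adipocyte library 2.

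At the other end, Mmp20 (enamelysin), Mmp1b (a homologue of interstitial collagenase), Adamts13 (the protease of von Willebrand factor), Adamts18, Mmp24, Adamts20 and Mmp7 (matrilysin) each averaged under 0.1 FPKM in both fractions. Mmp8, the neutrophil collagenase, was at or below 0.749 FPKM in every library, and the summed level of 10 neutrophil markers was 5.53 to 43.98 FPKM. Mmp13, the main interstitial collagenase of rodents, lay at 0.162 to 1.93 FPKM over all libraries.

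**Figure D2:**
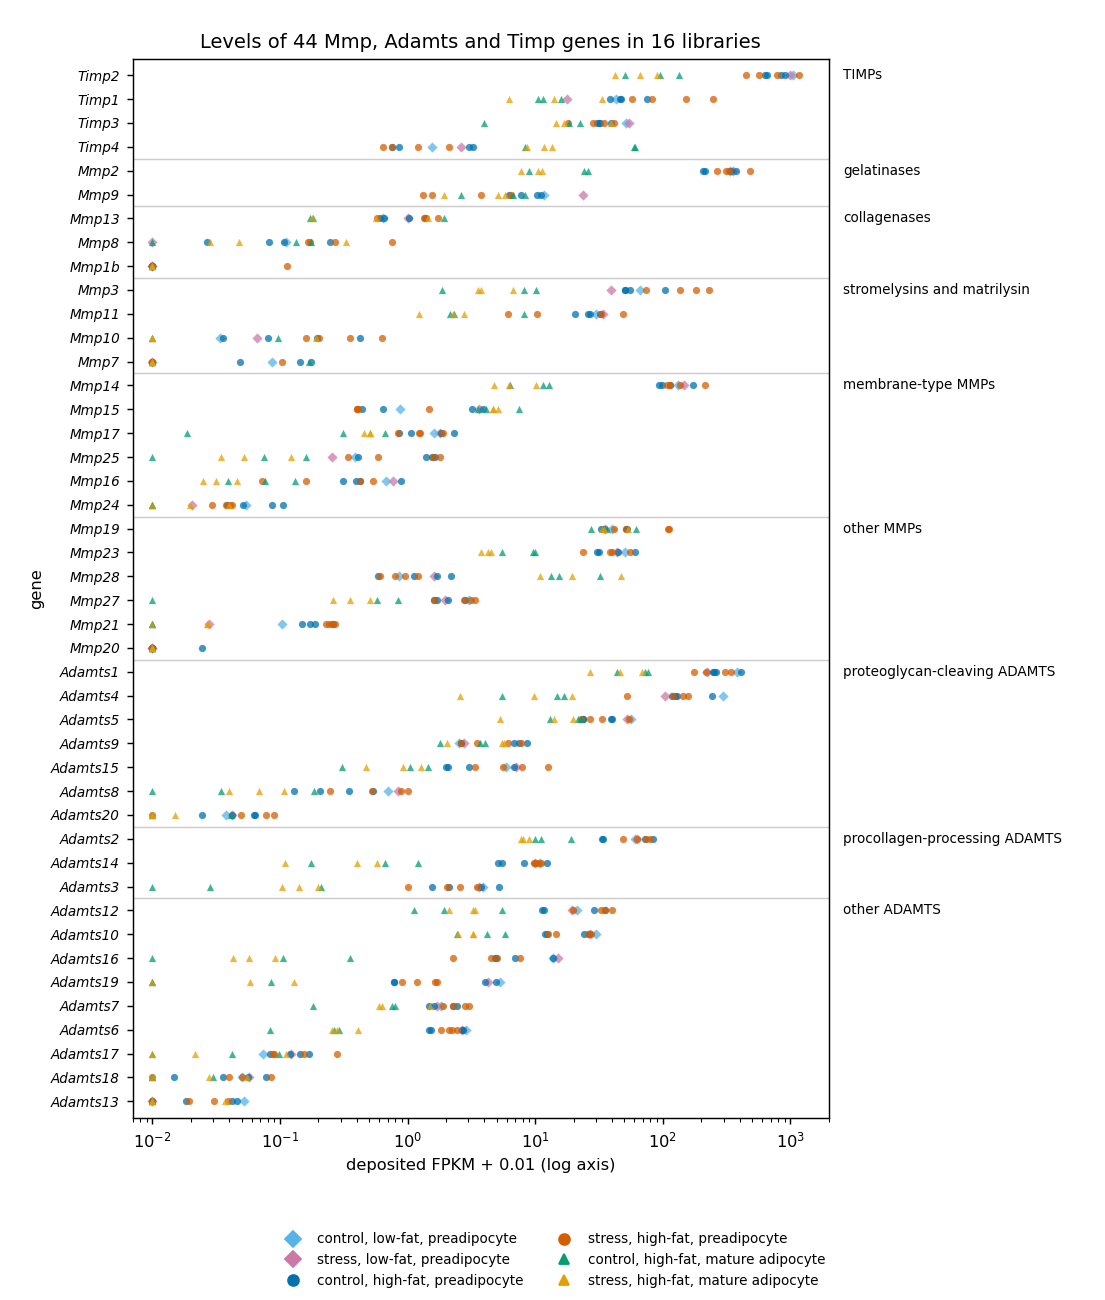
Level of each of the 44 genes in each of the 16 libraries (deposited FPKM plus 0.01, log axis), grouped by role; colours and shapes give treatment, diet and fraction. Most genes have the triangles of mature adipocytes to the left of the preadipocyte symbols, whereas Timp4 and Mmp28 have them on the right. Mmp15 has them mostly on the right, with some overlap.

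The first comparison asked how mature adipocytes differed from preadipocytes on the high-fat diet. Most members tested were lower in mature adipocytes, whereas of the 4 Timp genes 2 were lower and 1 higher. Summed over the 44 genes, the level was 1673 to 2986 FPKM in the 8 high-fat preadipocyte libraries (median 2143) and 266 to 487 FPKM in the 6 mature adipocyte libraries (median 341), without overlap. The split among families changed less: Timp genes held 34.1% to 43.6% of the sum in high-fat preadipocytes and 25.8% to 44.8% in mature adipocytes, and Mmp genes 27.8% to 44.5% and 26.8% to 40.7%. These shares overlapped widely. Timp2 alone made up 24.2% to 39.0% of the sum in high-fat preadipocytes and 12.6% to 33.8% in mature adipocytes. In bulk samples, fewer cells of a type and less RNA per cell cannot be told apart. The summed level of 12 progenitor markers was 980 to 2183 FPKM in high-fat preadipocytes and 122 to 314 in mature adipocytes. That of 14 endothelial markers was 53.8 to 259 and 225 to 887, and that of 10 mural markers 23.3 to 125 and 178 to 539. The part of these cell types in the differences below was not tested.

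**Figure D3:**
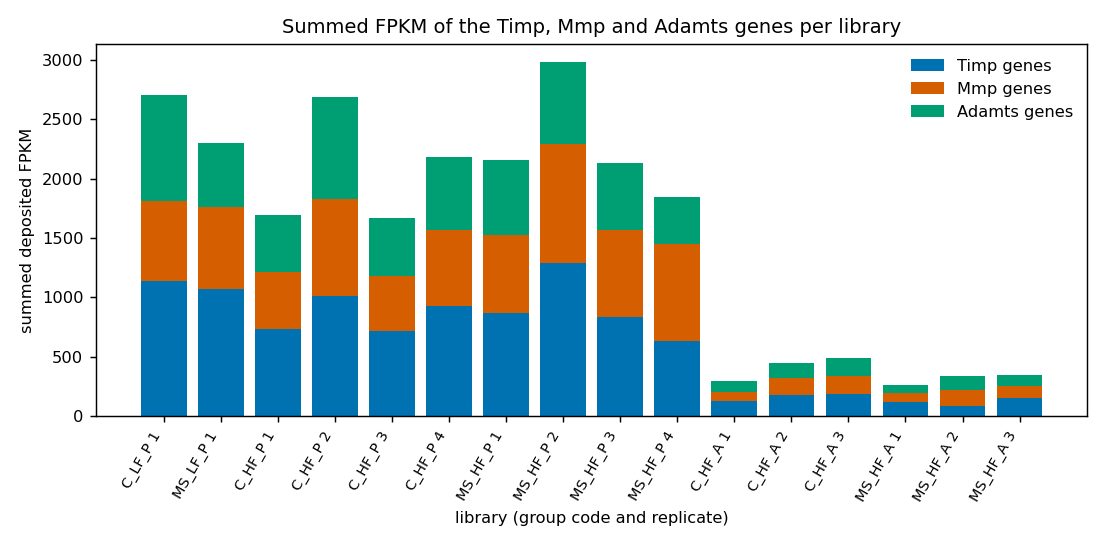
Summed deposited FPKM of the Timp, Mmp and Adamts genes in each library, as stacked bars from 0 on a linear axis. The 10 preadipocyte libraries lie between 1673 and 2986 FPKM and the 6 mature adipocyte libraries between 266 and 487.

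Of the 34 members with enough counts to be tested, 28 passed at a false discovery rate of 5%, 25 lower and 3 higher in mature adipocytes, in edgeR's quasi-likelihood test with Benjamini-Hochberg adjustment. Over all 16101 genes tested, 61.5% passed, 34.6% lower and 26.9% higher. The median log2 fold change was -2.62 over the tested members and -0.22 over all genes. A member that entered only through its preadipocyte counts could be called in 1 direction only, so these counts describe the list. In FPKM, 23 members did not overlap (39.4% of all genes tested). Of these, 21 were lower in every mature adipocyte library than in any high-fat preadipocyte library (21.9% of all genes tested) and 2 were higher in every one (17.4%). The other 10 members, among them Mmp8, Mmp10 and Mmp21, had too few counts for this test.

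Of the gelatinases Mmp2 was called, and it was lower in mature adipocytes. Control preadipocyte libraries held 214, 374, 208 and 342 FPKM and stress ones 314, 487, 267 and 330. The mature adipocyte libraries held 8.92, 25.8 and 24.2 (control) and 7.70, 10.6 and 11.3 (stress), all below the lowest preadipocyte library. The log2 fold change was -4.57 ± 0.34 (SE here and below), a 23.8-fold lower level (adjusted p = 8.77e-08). Mmp9, the other gelatinase, was not called, with 1.31 to 11.04 FPKM in high-fat preadipocytes (median 6.37) and 1.91 to 8.31 in mature adipocytes (median 5.46).

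Mmp14, which anchors in the membrane, activates Mmp2 and cuts fibrillar collagen, was 15.9-fold lower (log2 fold change -3.99 ± 0.29, adjusted p = 8.52e-08). Its level was 4.79 to 12.85 FPKM in mature adipocytes (median 8.22) against the 93.8 FPKM or more of every high-fat preadipocyte library. Of the 5 membrane-type genes tested, 4 were lower and 1 higher. Mmp25, which is held by a lipid anchor, stood at -3.95 ± 0.68 and Mmp16 at -3.21 ± 0.56. These sizes rest on 0 to 16 and 2 to 12 counts per mature adipocyte library. Over 27 alternatives both kept their calls, but Mmp25 ran from -4.36 to -0.91 and Mmp16 from -3.57 to -0.41. In FPKM Mmp16 overlapped, at 0.0628 to 0.885 in high-fat preadipocytes and 0.0148 to 0.120 in mature adipocytes. Mmp17, held like Mmp25 by a lipid anchor, was also lower, at 0.839 to 2.31 FPKM in high-fat preadipocytes and 0.00862 to 0.655 in mature adipocytes, without overlap. Mmp15, a further membrane-type gene, was the exception: it was 4.91-fold higher in mature adipocytes (2.29 ± 0.51, adjusted p = 0.00135).

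The levels of Mmp15 show how uneven that difference was. Control high-fat preadipocyte libraries held 3.91, 0.631, 3.20 and 0.433 FPKM and stress ones 0.394, 0.389, 0.402 and 1.45. Mature adipocyte libraries held 3.56, 4.08 and 7.504 (control) and 4.68, 5.11 and 4.64 (stress). Only the near-identical pair, libraries 1 and 3, came near the mature adipocyte range, and library 1 overlapped it. Those 2 libraries were also the ones with the most urothelial and mesothelial marker RNA (mesothelial sums of 617 and 615 FPKM, against 37.7 to 334 in the other 6), and the part of these cells in the Mmp15 level was not tested. In control libraries only, Mmp15 did not pass (1.70, adjusted p = 0.107, the highest of 27 alternatives).

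The 2 stromelysins tested were also lower. Mmp3, which degrades proteoglycans and activates other MMPs, had 1.84, 8.19 and 10.1 FPKM in control and 3.74, 3.56 and 6.64 in stress mature adipocytes, all below its preadipocyte range. It was 19.1-fold lower (-4.26 ± 0.49, adjusted p = 4.73e-06). Mmp11, stromelysin 3, was lower by a fitted log2 fold change of -3.12 ± 0.49, although its ranges met: 8.24 FPKM in control mature adipocyte library 3 and 6.09 in stress preadipocyte library 4. Mmp11 shares 5.58% of its exon bases with Chchd10 on the opposite strand, and without a stated strand setting their reads cannot be told apart there. Mmp23, a metalloproteinase with an unusual membrane anchor, was 7.19-fold lower (-2.85 ± 0.24). Of the remaining MMPs Mmp19 and Mmp13 were not called.

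Mmp28 was the member with the largest rise in mature adipocytes. It encodes epilysin, a secreted protease first known from skin and testis. High-fat preadipocytes held 2.16, 0.582, 1.69 and 1.10 FPKM (control) and 0.941, 1.19, 0.599 and 0.784 (stress). Mature adipocytes held 15.5, 13.3 and 32.1 FPKM (control) and 10.9, 47.3 and 19.5 (stress), all far above the preadipocyte libraries. It was 22.4-fold higher (4.48 ± 0.41, adjusted p = 4.82e-07). Of its exon bases 12.03% overlap 1700020L24Rik on the opposite strand.

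The ADAMTS genes were lower without exception among those called. All 3 procollagen-processing enzymes passed: Adamts3 at -4.65 ± 0.61, Adamts14 at -4.25 ± 0.49 and Adamts2, whose level was 33.5 to 84.0 FPKM in high-fat preadipocytes and 7.79 to 19.2 in mature adipocytes. Of the 6 tested enzymes that cleave proteoglycans 5 were lower, led by Adamts4 (12.01-fold, -3.59 ± 0.45, adjusted p = 1.03e-05). Adamts9, also known to cleave versican, was not called, at 2.62 to 8.63 FPKM in high-fat preadipocytes and 1.78 to 5.72 in mature adipocytes.

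Adamts1, the most abundant ADAMTS gene, was among those called lower and still ranked 2 among the members in mature adipocytes. Adamts15, another proteoglycan-cleaving enzyme, lay at 2.01 to 12.7 FPKM in high-fat preadipocytes and 0.297 to 1.44 in mature adipocytes, and Adamts8, its neighbour on chromosome 9, at 0.120 to 0.996 and 0 to 0.174. Adamts7, which like Adamts12 cleaves cartilage oligomeric matrix protein, lay at 1.47 to 2.997 and 0.173 to 1.48 FPKM, meeting in a narrow band. Adamts10, which binds fibrillin microfibrils, lay at 12.02 to 27.4 FPKM in high-fat preadipocytes and 2.43 to 5.80 in mature adipocytes, well apart.

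Adamts16 had the largest fitted difference of the tested members in the main fit. Its high-fat preadipocyte libraries held 4.86, 6.89, 4.95 and 13.7 FPKM (control) and 4.97, 7.65, 4.50 and 2.25 (stress). In mature adipocytes it was listed at 0 in control library 1 and reached at most 0.343 FPKM, in control library 3. The fit put it 73.4-fold lower (-6.20 ± 0.62, adjusted p = 1.15e-06). That size rests on 0 to 27 counts per mature adipocyte library. Over 27 alternatives the log2 fold change of Adamts16 kept its call but ran from -6.73 to -2.65. That of Mmp2 ran from -4.98 to -3.92, so the first rank of Adamts16 was not fixed. Adamts19, an orphan protease, followed at -5.42 ± 0.80, with 0.771 to 4.88 FPKM in high-fat preadipocytes and at most 0.119 in mature adipocytes. It ran from -6.68 to -1.48 over the same alternatives. Adamts12, which cleaves cartilage oligomeric matrix protein, was lower at -3.27 ± 0.39 and Adamts6, a microfibril-associated protease, at -3.10 ± 0.32.

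The 4 inhibitors parted ways. In mature adipocytes Timp2 was 9.66-fold lower (-3.27 ± 0.31, adjusted p = 6.41e-07). Its highest mature adipocyte library (135 FPKM) lay below its lowest preadipocyte library (447). Timp1, the inhibitor induced in inflamed fat, was 5.72-fold lower (-2.52 ± 0.43, adjusted p = 0.000147), with 6.21 to 33.7 FPKM against 38.6 to 247. Timp3, which stays bound to the matrix and also inhibits ADAMTS enzymes, was at -0.73 ± 0.37 and not called (adjusted p = 0.101). Its 6 mature adipocyte libraries ran from 3.94 to 39.4 FPKM, overlapping the 18.1 to 41.3 of the preadipocytes. Timp3 passed in limma on log2 FPKM with a pseudocount of 0.1 (-0.95, adjusted p = 0.0488) or 1 (-0.89, adjusted p = 0.0474), and without stress mature adipocyte library 3 (-1.06, adjusted p = 0.0166), and its adjusted p ran from 0.0166 to 0.681 over 27 alternatives.

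Timp4 went the other way. High-fat preadipocytes held 3.27, 0.846, 3.005 and 0.748 FPKM (control) and 2.10, 1.197, 0.745 and 0.631 (stress). Mature adipocytes held 60.1, 8.26 and 59.2 FPKM (control) and 8.57, 13.6 and 11.6 (stress), all above every preadipocyte library. It was 15.4-fold higher (3.95 ± 0.53, adjusted p = 1.94e-05). Timp1 and Timp2 kept their lower and Timp4 its higher call in all 27 alternatives run for this comparison.

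**Figure D4:**
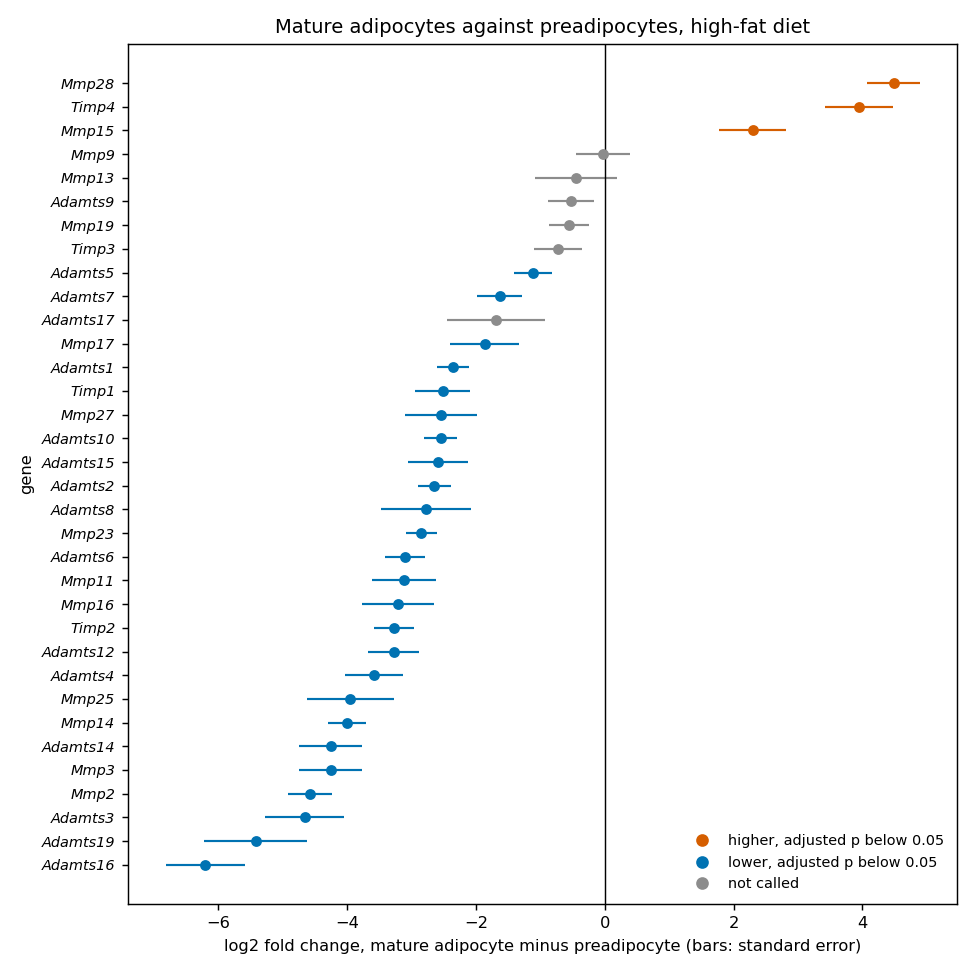
Log2 fold change (mature adipocyte minus preadipocyte, high-fat diet) of the 34 tested genes in edgeR's quasi-likelihood fit, with standard errors as bars and colour for the call at an adjusted p of 0.05. The 3 genes called higher are Mmp28, Timp4 and Mmp15, and 25 are called lower.

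Genes that act around the proteases were read from 4 further lists in the same fit. In that fit 61.5% of all genes passed, 34.6% lower and 26.9% higher. Of 24 activators and regulators, 21 were tested, 11 lower and 3 higher, in total a share near that of all genes. Lower were the plasminogen activators Plat (-4.37 ± 0.40) and Plau (-2.85 ± 0.43), Reck, a membrane-anchored MMP inhibitor (-4.27 ± 0.33), and the testican Spock2 (-3.72 ± 0.39). Higher were the serine protease Klk8 (1.62 ± 0.53), the MMP inducer Bsg, or basigin (1.21 ± 0.20), and the matrix protein Sparc (0.79 ± 0.30). Klk8 overlapped in FPKM, at 0.197 to 1.10 in high-fat preadipocytes and 0.495 to 5.80 in mature adipocytes. Its highest value was in low-complexity control library 3. Sparc overlapped as well, at 480 to 1154 and 891 to 2971 FPKM. Its highest values, 2752 and 2971, were in the low-complexity control libraries 1 and 3.

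Of 12 ADAM proteases, the membrane-bound relatives, 10 were tested, 7 lower and 1 higher. Adam33 (-4.07 ± 0.34), Adam19 (-2.43 ± 0.41), Adam12 (-1.44 ± 0.28) and the catalytically inactive Adam22 (-1.38 ± 0.34) had the largest drops, and Adam15 was higher (0.53 ± 0.19). ADAMTS-like proteins share the ancillary repeats of ADAMTS enzymes but have no protease domain, and 6 of 7 were lower, led by Adamtsl3 (-5.20 ± 0.44) and Adamtsl1 (-4.81 ± 0.34). Among 30 matrix substrates 28 were tested, 25 of them lower and 0 higher. The largest drops were in Fbn1, which encodes fibrillin 1 and is also on the progenitor marker list (-5.62 ± 0.43), Lama2 (-5.11 ± 0.41), Lum, or lumican (-4.78 ± 0.35), and Fbn2 (-4.58 ± 0.71). The background for these lists is the same 61.5% of all genes, 34.6% lower and 26.9% higher.

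Whether early life stress changed these genes in high-fat preadipocytes was asked next. No member passed: edgeR called 0 of the 38 tested and 0% of all 17129 genes, and 4 members and 496 genes had an unadjusted p below 0.05. DESeq2 and limma on FPKM called 0 members as well. In FPKM 0 of the 38 members were separated between the groups, against 2.92% of all genes, 1.66% higher and 1.26% lower under stress. Particular libraries stood out for some of the members described below.

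Timp1 lay at 46.2, 74.7, 47.0 and 38.6 FPKM in control libraries and at 57.0, 82.9, 247 and 154 in stress libraries. Stress libraries 3 and 4 were the high ones, library 2 lay just above every control, and library 1 lay inside the control range. The mean was 53.3 ± 18.9 (SD, n = 3) in controls and 135 ± 85.0 (SD, n = 4) under stress, a log2 fold change of 1.37 ± 0.53 that was not called (adjusted p = 0.973). It was 0.88 without stress library 3 and 0.32 without stress libraries 3 and 4.

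Mmp3 lay at 50.4, 104, 50.2 and 54.99 FPKM in control and at 74.1, 136, 182 and 230 in stress libraries. Only control library 2 reached into the stress range, and the difference was not called (1.18 ± 0.43, adjusted p = 0.973). Mmp19 showed 32.6, 51.7, 34.9 and 52.7 FPKM in control and 41.3, 51.4, 109 and 112 in stress libraries, so again libraries 3 and 4 stood out (0.79 ± 0.42, adjusted p = 0.973). These were the preadipocyte libraries with the highest macrophage sums: 4697 and 5471 FPKM, against 1003 to 3004 in the other high-fat preadipocyte libraries, with each of the 16 markers detected in both groups. The part of macrophages in these levels was not tested. Without libraries 3 and 4 the fitted change of Mmp3 was 0.52 and that of Mmp19 -0.06.

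Other members were low in those same libraries. Mmp11 held 26.1, 32.5, 26.8 and 20.5 FPKM in control and 32.6, 49.2, 10.3 and 6.09 in stress libraries, where libraries 3 and 4 lay below every control. Mmp9 held 11.04, 6.26, 10.4 and 7.76 FPKM in control and 6.48, 1.31, 3.74 and 1.54 in stress libraries, so that 3 of 4 stress libraries lay below all controls (-1.34 ± 0.56, adjusted p = 0.973). Adamts19 differed by -1.26 ± 0.54 and Adamts16 by -0.83 ± 0.43, both with adjusted p = 0.973. Their control libraries were themselves uneven, with Adamts19 at 0.780, 4.07, 0.771 and 4.88 FPKM, the near-identical pair being the low ones. Without control library 4, Adamts16 was at -0.31 and Adamts19 at -0.83.

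The remaining inhibitors showed little separation. Timp2 was at 801 ± 136 FPKM in controls (SD, n = 3) and 740 ± 314 under stress (SD, n = 4), with a log2 fold change of -0.14 ± 0.31. Timp3 was at -0.16 ± 0.25 and Timp4 at -0.48 ± 0.62. The sign of all 3 turned when libraries were left out: without stress libraries 3 and 4 Timp2 was at 0.21 and Timp3 at 0.10, and without the near-identical pair Timp4 was at 0.56. The ratio of summed Timp to summed Mmp FPKM was 1.247 to 1.55 in control high-fat preadipocytes and 1.34, 1.28, 1.14 and 0.766 in stress libraries 1 to 4.

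**Figure D5:**
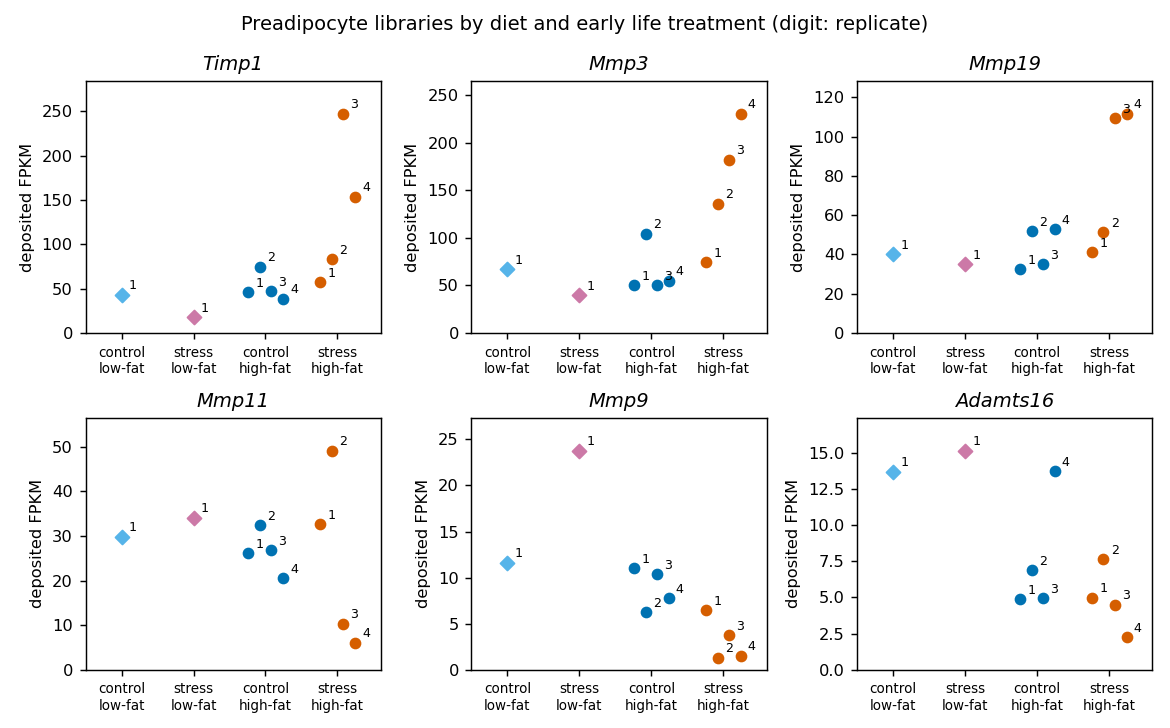
Deposited FPKM (linear axis from 0) of 6 genes in each preadipocyte library by early life treatment and diet, with the replicate digit beside each point. Stress high-fat libraries 3 and 4 lie highest for Timp1, Mmp3 and Mmp19 and lowest for Mmp11.

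In mature adipocytes, the same comparison on the high-fat diet called 0 of 29 tested members and 0% of 14485 genes in edgeR, with 3 members and 417 genes at an unadjusted p below 0.05. DESeq2 called 9 genes and limma 0, none of them members. Separation in FPKM was seen for 2 members, Adamts2 and Mmp23, both lower under stress, against 6.7% of all genes, 3.22% higher and 3.48% lower.

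Mmp23 stood at 9.97, 5.53 and 9.60 FPKM in control and at 4.26, 4.47 and 3.77 in stress mature adipocytes (-0.96 ± 0.36, adjusted p = 0.9996). Adamts2 stood at 11.1, 9.94 and 19.2 in control and at 8.03, 7.79 and 8.89 in stress libraries (-0.65 ± 0.34). The gap between groups was small against the spread of the controls. Mmp2 was at -0.98 ± 0.43, with its 2 highest values in control libraries 2 and 3 and control library 1 inside the stress range. Mmp11 was at -0.95 ± 0.60 and Mmp14 at -0.51 ± 0.41, and neither was called.

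Timp4 was uneven among the control libraries. Its 2 highest values, 60.1 and 59.2 FPKM, were in control libraries 1 and 3, and control library 2 at 8.26 FPKM lay below all stress libraries. The log2 fold change was -1.85 ± 0.59 (adjusted p = 0.9996). Libraries 1 and 3 are the low-complexity ones, and without them the value was 0.38. The summed adipocyte markers were 39443, 10079 and 28734 FPKM in control libraries 1, 2 and 3 and 16802, 31362 and 10277 in the stress libraries, and their part in the Timp4 level was not tested. With no filter on low counts edgeR called Timp4 lower (-1.82, adjusted p = 0.00674, the lowest of 14 alternatives, of which the highest was 0.9999). Timp1 (0.55 ± 0.56), Timp2 (-0.47 ± 0.46) and Timp3 (0.67 ± 0.62) were not called.

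A test of whether the stress effect differed between fractions called 0 of 38 members and 0% of 17948 genes, with 1 member, Mmp3, and 873 genes at an unadjusted p below 0.05. DESeq2 called 3 genes and limma 0, none of them members. Mmp3 had the smallest p of a member, a difference of log2 fold changes of -1.61 ± 0.75 (adjusted p = 0.934): 1.18 ± 0.43 in preadipocytes against means of 6.71 ± 4.33 FPKM in control and 4.64 ± 1.73 under stress in mature adipocytes (SD, n = 3 each). Mmp2 (-1.13 ± 0.53), Mmp23 (-0.73 ± 0.44) and Adamts2 (-0.69 ± 0.46) followed, with Adamts19 (2.30 ± 1.45) and Mmp21 (2.55 ± 1.48) on the positive side. The last 2 rest on very few mature adipocyte counts, since both were listed at 0 in several libraries. The inhibitors stood at -0.76 ± 0.78 (Timp1), -0.32 ± 0.60 (Timp2), 0.85 ± 0.74 (Timp3) and -1.37 ± 0.92 (Timp4).

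The diet comparison set the 8 high-fat against the 2 low-fat preadipocyte libraries and adjusted for early life treatment. It rests on 1 low-fat library per treatment. edgeR called 0 of 39 tested members and 0% of 18468 genes, with 8 members and 2360 genes at an unadjusted p below 0.05. DESeq2 called 416 genes, 0 of them members. In FPKM 3 members were separated between the diets, 1 higher and 2 lower on the high-fat diet, against 16.1% of all genes, 6.97% higher and 9.15% lower.

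Timp3 was 1 of them: the low-fat libraries held 51.1 and 54.4 FPKM and the high-fat libraries 18.1 to 41.3 (median 31.9), all below both (-0.71 ± 0.23, adjusted p = 0.328). Timp3 shares 21.3% of its exon bases with Syn3 on the opposite strand. Mmp9 held 11.6 FPKM in the control and 23.8 in the stress low-fat library, against 1.31 to 11.04 on the high-fat diet, a narrow gap for the control library (-1.96 ± 0.64, adjusted p = 0.328). Mmp21, a gene of left-right patterning in the embryo, was higher on the high-fat diet at 0.138 to 0.261 FPKM against 0.0930 and 0.0180 (1.94 ± 0.67, adjusted p = 0.335), levels of a few counts per library.

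Further differences overlapped. Adamts16 had 13.7 and 15.2 FPKM in the low-fat libraries, and control high-fat library 4 alone matched that at 13.7 (-1.23 ± 0.43, adjusted p = 0.335). Adamts5, the main aggrecanase of mouse cartilage, was at 55.98 and 52.7 FPKM against 23.0 to 54.2 (-0.66 ± 0.27, adjusted p = 0.373). Mmp25 was at 0.374 and 0.245 FPKM on the low-fat diet (1.84 ± 0.75, adjusted p = 0.370). Stress high-fat library 3 (0.333) lay between these values and control high-fat library 4 (0.399) just above them. Timp1 stood at 1.35 ± 0.77, with 0.31 to 2.96 over the libraries left out in turn, Timp2 at -0.41 ± 0.29 and Timp4 at -0.63 ± 0.62. The summed macrophage markers were 884 and 1104 FPKM in the low-fat libraries and 1003 to 5471 on the high-fat diet, and their part in these values was not tested.

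Between the low-fat libraries themselves, control and stress, there was no replicate and no test. The control library held more Adamts4 (295 against 103 FPKM), Adamts1 (383 against 221), Timp1 (43.0 against 17.9) and Mmp3 (66.8 against 39.5). The stress library held more Mmp9 (23.8 against 11.6) and Mmp15 (3.62 against 0.865). It also held a urothelial and reproductive tract marker sum of 81.6 FPKM, exceeded among preadipocyte libraries only by the near-identical pair, against 16.3 in the low-fat control. Timp2, Mmp2 and Mmp14 were close, at 1046 and 998, 334 and 357, and 133 and 148 FPKM.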

How the data were processed

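RNA of 16 libraries was measured by bulk sequencing. The submitters' processing notes name STAR 2.6.1d, DESeq2 1.20.0, edgeR 3.24.3, mm10 and GRCm38. Neither the counting program nor its strand setting is given in the sources used here. For every gene the authors deposited a raw read count and an FPKM value. The authors' FPKM equal the count over gene length and library total, multiplied by a factor of each library, so they are scaled between libraries.

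Counts were tested with edgeR 4.0.16 (TMM, filterByExpr, robust quasi-likelihood fit, R 4.3.3), with Benjamini-Hochberg adjustment over all genes tested and calls below 0.05. The SE is the log2 fold change over the square root of F. Early life treatment was a covariate for fraction and diet. Statistics are given for called members, at most the 15 with the largest change in each direction, for the 6 smallest p-values where fewer than 6 were called, and for the Timp genes. From pathway lists at most 4 called genes in each direction are named, and from marker lists at most 2. The levels of Mmp11 in stress preadipocytes and of the low-fat libraries were chosen for printing after they were seen. Members and lists were chosen with earlier results of these data known.

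Alternatives were DESeq2 1.42.0 (test or size factors), limma 3.58.1 on log2 of the deposited FPKM plus 0.1 or 1, other filters, the near-identical pair kept as 2, a replicate block, 1 treatment only and libraries left out. Motifs were searched in RefSeq windows.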

Additional observations from a re-analysis of the deposited data

Results flagged for a closer look

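Mmp15 in stress high-fat preadipocyte library 4 lay far from the other libraries of its group, at 1.45 FPKM against 0.389 to 0.402 in libraries 1 to 3. It was 1 of 39 values tested in this group of 4, namely 38 members and the summed FPKM of all members. Chance alone sets apart about 1 group in 20. That library had 9.25 FPKM of summed urothelial and reproductive tract markers and 59.2 FPKM of mesothelial markers, and their part in the value was not tested.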

How the results depend on the processing

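In the fraction comparison 18 of the 20 members given with statistics kept their direction and call in all 27 alternatives, and the exceptions, Mmp15 and Timp3, are given above. The members called numbered 2 to 3 higher and 21 to 28 lower, and the genes called fell to 5998 in control libraries only. DESeq2 called 4 genes for stress in preadipocytes, 9 in mature adipocytes, 3 for the difference between fractions and 416 for diet. With no filter on low counts the counts were 51 in mature adipocytes (1 member, Timp4, lower) and 1 for diet, and limma with a pseudocount of 0.1 gave 1 for diet. Leaving out each library in turn gave 0 to 9 genes in mature adipocytes and 0 to 1 for diet, with the 9 without control mature adipocyte library 2 and the 1 without control high-fat preadipocyte library 4. Signs turned for members that were not called. For stress in preadipocytes, leaving out each library put Timp3 between -0.32 and 0.00857 and Timp2 between -0.41 and 0.0282, and without stress libraries 3 and 4 Mmp19 was at -0.0553, Timp2 at 0.21 and Timp3 at 0.10. Without the near-identical pair Timp4 was at 0.56 there. In mature adipocytes, leaving out each library put Timp1 between -0.33 and 0.93, and without the low-complexity libraries Timp4 was at 0.38. For the difference between fractions, Mmp21 was at -0.0763 and -0.0405 in limma, Timp2 ran from -0.62 to 0.12 with each library left out, Timp4 was at 0.88 without the low-complexity libraries and Timp1 at 0.17 without stress preadipocyte libraries 3 and 4. For diet, Timp4 ran from -1.16 to 0.0581 with each library left out. The causes were not tested. Leaving out the near-identical pair, and stress preadipocyte libraries 3 and 4 for the fraction and its difference in stress effect, was chosen after seeing the data. Deviations of same-numbered libraries from their group means correlated at r from -0.18 to 0.14 between fractions and -0.25 to 0.33 between treatments. Different numbers gave -0.15 to 0.15 and -0.30 to 0.23. Such values cannot show whether a number marks 1 animal, and the labels do not say. The numbers were not taken as pairs in the main tests. With a replicate block, 9284 genes were called for fraction, 1 for stress in preadipocytes and 0 elsewhere, and Timp4 for diet was at 0.40. The 10 members that the low-count filter removed from the fraction comparison have no test there.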

Other observations

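Besides the run on chromosome 9, 2 pairs of members are neighbours on GRCm38. Adamts1 and Adamts5 lie 53.1 kb apart on chromosome 16 on the same strand, with 175 to 411 and 23.0 to 54.2 FPKM in high-fat preadipocytes and 27.1 to 77.0 and 5.33 to 23.0 FPKM in mature adipocytes. Adamts15 and Adamts8 lie 20.1 kb apart on chromosome 9 on opposite strands, with 2.01 to 12.7 and 0.120 to 0.996 FPKM in high-fat preadipocytes. In both pairs the first gene had the higher level in each of these libraries, and the ranges of the first pair met in no fraction.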
